A study of Mus musculus with 4 samples.

Results

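The 10 genes described here belong to the axis between natural killer (NK) cells and their targets, and they were followed through single-cell RNA sequencing of Lewis lung carcinoma (LLC) tumors, with and without hypofractionated radiotherapy. They were 7 receptors of NK cells (Klra4, Klra8, Klrb1c, Klrk1, Klrd1, Klrc1 and Ncr1) and 3 ligands of the NKG2D receptor (Raet1d, Raet1e and Ulbp1), matched by symbol in the gene tables of all 4 libraries. These 10 members stood among 18596 genes shared by the 4 tables. The members were chosen by their measured levels in these libraries, including the contrast between irradiated and mock-treated tumors, so every value below is a description and no test was run.

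LLC is a mouse lung carcinoma cell line, grown here under the skin of female C57BL/6N mice aged 6 to 8 weeks. The control group (NT, mock treatment) was 1 library pooled from 3 tumors. Irradiated tumors (RT) were sequenced 1 per library, as RT1, RT2 and RT3, after 24 Gy in 3 fractions of 8 Gy, and all tumors were taken 72 h after treatment. The spread between NT tumors was therefore not measured, and the RT spread was over 3 tumors. No sort or gate for NK cells was described for these libraries, and NK cells were a small fraction of each.

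The tables held 10141 cell barcodes in NT, 15346 in RT1, 14994 in RT2 and 15324 in RT3, with 69667759, 78585759, 108699844 and 85660188 unique molecular identifiers (UMIs, 1 per captured transcript molecule). After filtering, 9976, 15029, 14993 and 15060 cells remained, with median depths of 5709, 3864, 5199 and 4158 UMIs. Between 1.73% and 1.83% of the barcodes of the smaller library were shared by any pair of libraries. Cells were grouped without 70 listed genes, the members included, and without mitochondrial genes. Classes were named from markers that were not members. Gzma and Prf1, which are markers of NK cells, were among the listed genes.

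NK cells recognise targets by summing signals from activating and inhibitory receptors on their surface. NKG2D (gene Klrk1) is an activating receptor whose ligands, in mice the RAE-1, H60 and MULT1 proteins, appear on stressed, infected or transformed cells. Many, but not all, receptors of the Ly49 family (Klra genes) read major histocompatibility complex class I molecules, which most healthy cells carry. The CD94/NKG2A pair (Klrd1 and Klrc1) reads a class I molecule too.

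Some members have close copies in the genome, which bears on how reads were assigned to them. Upstream sequences from RefSeq on GRCm38.p6 were available for 9 of the 10 members (none for Klrd1). Klra8 and Raet1e had 2 starts each, and the start most like the partner's is shown. The identities given for the pairs are therefore the highest found. The first pair shown is Klra4 and Klra8, 2 neighbouring Ly49 genes whose levels went together in NK cells and apart in tumor cells. The 250 bases before the start of Klra4 (chr6:130067272-130067521, minus strand) and of Klra8 (chr6:130129899-130130148, minus strand) had 212 identical bases, 37 mismatches and 2 gapped bases, an identity of 85.1% over the aligned positions. Capitals mark bases that differ from the partner or have none.
Klra4: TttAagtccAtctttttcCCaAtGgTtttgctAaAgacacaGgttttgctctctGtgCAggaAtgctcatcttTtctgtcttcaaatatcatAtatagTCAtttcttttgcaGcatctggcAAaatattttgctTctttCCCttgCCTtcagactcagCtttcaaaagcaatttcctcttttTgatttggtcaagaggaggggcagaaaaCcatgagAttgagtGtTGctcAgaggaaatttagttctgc
Klra8: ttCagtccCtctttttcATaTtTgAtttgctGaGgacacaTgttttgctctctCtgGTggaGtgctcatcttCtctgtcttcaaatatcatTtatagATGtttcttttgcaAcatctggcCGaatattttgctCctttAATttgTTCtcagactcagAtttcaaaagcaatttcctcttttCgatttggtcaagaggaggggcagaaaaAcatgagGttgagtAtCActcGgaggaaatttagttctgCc

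The second pair is Raet1d (chr10:22361644-22361893, plus strand) and Raet1e (chr10:22173247-22173496, plus strand), shown because parts of their transcripts are identical, so some reads may fit either gene. Their upstream windows had 245 identical bases, 3 mismatches and 4 gapped bases, which lie at the window ends, an identity of 98.8%. Over the last 500 bases of the annotated transcripts, where a 3′ library reads, 87.7% of the 31-base words of Raet1d also occurred in Raet1e. For the Raet1e transcripts the share found in another gene was 58.1% to 87.7%, mostly with Raet1d, so the split of UMIs between them is uncertain. The same share was 57.0% to 68.7% for the Klrc1 transcripts, mostly with Klrc2, 44.5% for Klra8, mostly with Klra9, and 15.1% for Klra4. For Klrb1c it ranged from 0% to 62.1% between transcripts and for Ulbp1 from 0% to 5.11%. No word of Klrk1, Klrd1 or Ncr1 occurred in another gene.
Raet1d: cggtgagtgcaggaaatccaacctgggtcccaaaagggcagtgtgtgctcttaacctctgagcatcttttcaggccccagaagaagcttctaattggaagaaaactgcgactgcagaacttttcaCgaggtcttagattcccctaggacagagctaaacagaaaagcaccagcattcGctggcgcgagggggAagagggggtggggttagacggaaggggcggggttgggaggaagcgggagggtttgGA
Raet1e: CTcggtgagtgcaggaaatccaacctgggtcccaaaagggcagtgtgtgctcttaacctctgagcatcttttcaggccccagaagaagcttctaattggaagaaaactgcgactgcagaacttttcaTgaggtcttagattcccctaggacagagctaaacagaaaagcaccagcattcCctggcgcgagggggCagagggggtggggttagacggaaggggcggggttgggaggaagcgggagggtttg

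Ulbp1 (chr10:7473478-7473727, minus strand) is shown because its level was highest in dividing tumor cells, and the motifs were searched after that pattern was seen. Both strands were searched for TTCCCGC, the core of a site for the E2F factors of the cell cycle, and for the CCAAT box. Capitals mark the matches. TTCCCGC was in 3.82% of 32851 promoter windows and, among the members, only in that of Ulbp1, while CCAAT was in 33.8% of all windows and is common.
Ulbp1: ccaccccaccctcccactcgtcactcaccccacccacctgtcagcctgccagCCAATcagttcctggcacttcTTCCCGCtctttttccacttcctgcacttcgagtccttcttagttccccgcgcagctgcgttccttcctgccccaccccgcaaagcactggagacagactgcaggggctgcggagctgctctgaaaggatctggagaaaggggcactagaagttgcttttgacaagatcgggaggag

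NK cells numbered 111 in NT, 173 in RT1, 224 in RT2 and 135 in RT3, in 3 clusters. Their summed UMIs were 219602, 362035, 736821 and 389828, with median depths of 1283, 1425, 1680 and 1743 UMIs per cell. Their markers, none of which was a member, were Gzma (granzyme A), Prf1 (perforin), Eomes, Txk and others, and 9 of 9 were above the lymphocyte mean in each NK cluster. The level of Gzma in NK cells was 5168, 8709, 8184 and 5318 counts per 1000000 UMIs of the class (CPM) in NT, RT1, RT2 and RT3. In CD8 T cells of the same libraries it was 181, 19.9, 6.44 and 376 CPM. Gzma helped to name the NK clusters, so this difference is not separate support for their name.

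The activating Ly49 receptors Klra4 (Ly49D) and Klra8 (Ly49H), which signal through the adaptor DAP12, were the only receptor members that were above NT in all 3 RT libraries. Klra4 in NK cells was 232 CPM in NT (51 UMIs, exact Poisson 95% interval 173 to 305), 635 in RT1 (230 UMIs, 556 to 723), 320 in RT2 (236 UMIs, 281 to 364) and 274 in RT3 (107 UMIs, 225 to 332). RT1 stood apart at the top, and the intervals of NT and the other two RT libraries overlapped. Such intervals cover counting error only. The log2 ratios to NT were 1.44, 0.45 and 0.23, a mean of 0.71 ± 0.64 (SD, n = 3 RT libraries).

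Klra8 followed the same order. It was 209 CPM in NT (46 UMIs), 483 in RT1 (175 UMIs), 293 in RT2 (216 UMIs) and 231 in RT3 (90 UMIs). The mean log2 ratio was 0.60 ± 0.54 (SD, n = 3), again with RT1 far above the others and RT3 close to NT. The ratio of Klra4 to Klra8 UMIs in NK cells was 1.11, 1.31, 1.09 and 1.19 in NT, RT1, RT2 and RT3, nearly the same in every library. At least 1 UMI of either gene was found in 26.1% of NK cells in NT, 51.4% in RT1, 40.2% in RT2 and 40.0% in RT3, and UMIs of both in 6.31%, 22.0%, 15.2% and 10.4%.

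Klrc1, which encodes the inhibitory chain NKG2A, was the only receptor member below NT in all 3 RT libraries. Its level in NK cells was 496 CPM in NT (109 UMIs, 408 to 599), 276 in RT1 (100 UMIs, 225 to 336), 269 in RT2 (198 UMIs, 233 to 309) and 246 in RT3 (96 UMIs, 200 to 301). The RT libraries lay within a narrow band, 264 ± 15.6 CPM (SD, n = 3), and the interval of NT did not meet any of theirs. The log2 ratios were -0.84, -0.89 and -1.01, a mean of -0.91 ± 0.09 (SD, n = 3).

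Klrd1 encodes CD94, the partner chain of NKG2A, and did not share that pattern. It was 492, 787, 428 and 493 CPM in NT, RT1, RT2 and RT3, with RT1 high and the other three libraries close together. Klrk1, the NKG2D receptor itself, was 214, 221, 186 and 136 CPM, with RT3 lowest and NT and RT1 almost equal. The log2 ratios averaged 0.16 ± 0.46 for Klrd1 and -0.28 ± 0.35 for Klrk1 (SD, n = 3), so both had RT libraries on either side of NT.

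The remaining receptors were Klrb1c, which encodes NK1.1, and Ncr1, which encodes the activating receptor NKp46. Klrb1c was 474 CPM in NT, 519 in RT1, 430 in RT2 and 351 in RT3, and Ncr1 was 396, 522, 319 and 280 CPM in the same order. RT1 was highest and RT3 lowest for both genes, with NT between them. Their mean log2 ratios were -0.15 ± 0.28 and -0.14 ± 0.47 (SD, n = 3).

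**Figure D1:**
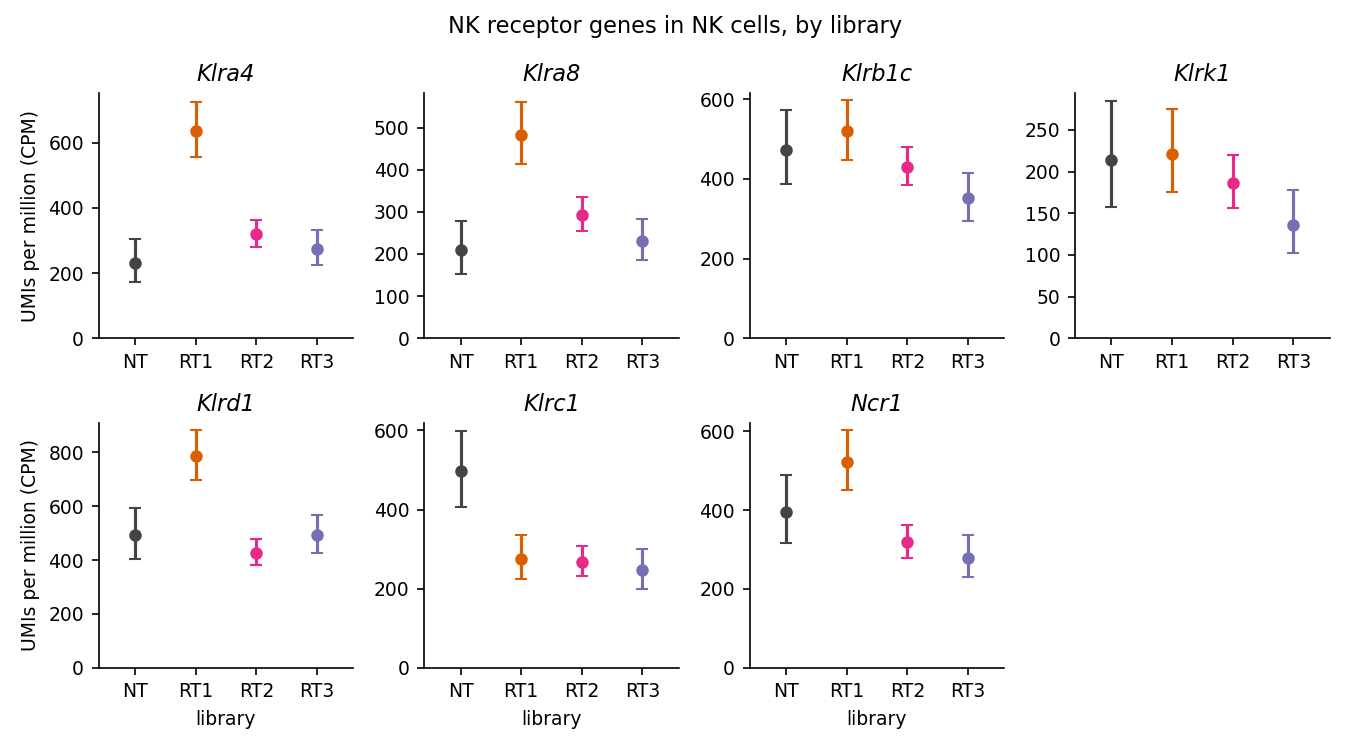
Level of the 7 receptor members in NK cells of each library, in CPM, with exact Poisson 95% intervals as bars. RT1 is highest for Klra4, Klra8, Klrb1c, Klrk1, Klrd1 and Ncr1, while Klrc1 is highest in NT at 496 CPM and between 246 and 276 CPM in the RT libraries.

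A gene was counted as past the fold rule when its log2 ratio to NT was 1 or more in size with 1 sign in every RT library, among genes with a mean of 10 CPM or more in the class. None of the 7 receptor members met it in NK cells, where 5.06% of 7257 genes met it as higher and 2.48% as lower. By side alone, 2 of 7 members were above NT in all 3 RT libraries and 1 of 7 was below, while 27.4% of all tested genes were above and 36.0% below. The median log2 ratio of the 7 members was -0.14, beside -0.11 for all tested genes. The 2 of 7 is near the background share and the 1 of 7 is under it, and since the members were chosen on this contrast nothing further was read from them.

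T-cell genes moved with the libraries too. The share of NK cells with a UMI of Cd3d, Cd3e, Cd3g, Trac, Cd8a, Cd8b1 or Cd4 was 36.0% in NT, 8.67% in RT1, 17.9% in RT2 and 12.6% in RT3, and the summed level of these genes was 742, 74.6, 209 and 154 CPM. NT was the highest library on both measures. Without those cells, 71, 158, 184 and 118 NK cells remained. Klrc1 then had log2 ratios of -0.86, -1.01 and -0.99, close to the values over all NK cells. At these depths a cell with no T-cell UMI can still be a T cell. Klra4 had 0.99, 0.07 and -0.19, and Klra8 1.03, 0.37 and -0.02, so neither was still above NT in every RT library, and Klrb1c and Klrk1 were then below NT in all 3.

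Depth per cell also differed between libraries, so each cell was thinned to 1000 UMIs, which left 69, 118, 159 and 94 NK cells and dropped 42, 55, 65 and 41 shallower ones. Klra4 was then found in 13.0% of NK cells in NT, 33.9% in RT1, 20.1% in RT2 and 20.2% in RT3. Before thinning the shares were 14.4%, 38.2%, 29.0% and 24.4%. Klrc1 was found in 30.4%, 22.0%, 17.6% and 23.4% of thinned cells, and in 40.5%, 27.7%, 32.6% and 27.4% before thinning. NT was lowest for Klra4 and highest for Klrc1, as in CPM. The exact binomial interval of Klrc1 in thinned NT cells, 19.9% to 42.7%, overlapped those of RT1 (14.9% to 30.6%), RT2 (12.0% to 24.4%) and RT3 (15.3% to 33.3%). In thinned CD8 T cells of the same libraries, a type that should hold little Klra4, a Klra4 UMI was found in 0 of 73 cells in NT, 0 of 40 in RT1, 1 of 132 in RT2 and 0 of 55 in RT3, with upper exact binomial 95% bounds of 4.93%, 8.81%, 4.15% and 6.49%. The median depths of all CD8 T cells were 1545.5, 1291, 2335 and 1236 UMIs. Unthinned, CD8 T cells held 0, 0, 1 and 3 Klra4 UMIs.

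The number of receptors detected differed from cell to cell. NK cells held UMIs of a median of 2 of the 7 receptor members in NT and 3 in each RT library, and 20.7%, 6.94%, 14.7% and 20% of NK cells in NT, RT1, RT2 and RT3 held none. RT1 was again the library that stood apart, and NT and RT3 were nearly equal. These shares were not thinned and rise with depth per cell.

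The 3 NK clusters were 419 cells led by Klra4, Klra8 and Klrb1b, 136 dividing cells led by Gzma, Nusap1 and Pclaf, and 88 cells led by Gzmg, Tmsb15a and Gzmd. Within each of them Klra4 was lowest in NT. In the largest cluster it was 375 CPM in NT, 812 in RT1, 455 in RT2 and 474 in RT3. In dividing cells it was 117, 579, 218 and 197 CPM, where the 6 UMIs of NT came from 1 of 25 cells, and in the cluster led by Gzmg it was 133, 360, 254 and 179 CPM, where NT rested on 10 UMIs.

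Klrc1 divided by cluster. In the largest cluster it was 600 CPM in NT, 320 in RT1, 345 in RT2 and 288 in RT3, and in dividing cells it was 779, 261, 299 and 219 CPM. NT was highest in both. T-cell genes in the dividing cluster were highest in NT too. Cd3e there was 409 CPM in NT (12 of 25 cells), 28.0 in RT1, 58.9 in RT2 and 51.0 in RT3, and Cd8a was found in 7 of 25 cells in NT and in 0, 3 and 3 cells in the RT libraries. Gzma was found in 28% of these cells in NT and in 74.2%, 69.8% and 73.0% in RT1, RT2 and RT3. The largest cluster had Cd3e at 193, 17.8, 42.3 and 33.8 CPM, again with NT highest. The part of these cells in the Klra4 and Klrc1 values of NT was not tested by cluster. In the cluster led by Gzmg, which had 9 cells in NT, Klrc1 was 173, 209, 146 and 238 CPM and NT lay among the RT libraries.

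Most receptors were shared by more than 1 class, and they fell into 2 sets by their order of levels. The first set was carried mainly by NK cells. Klra8 averaged 304 ± 125 CPM in NK cells (SD, n = 4 libraries, NT and RT together, as for all such means below), 79.6 ± 69.6 in an unnamed lymphocyte cluster led by interferon-response genes, and at most 2.83 in any other class. Klrb1c averaged 444 ± 71.4 CPM in NK cells, 184 ± 35.1 in the interferon-response cluster and 16.6 ± 8.50 in CD8 T cells. Ncr1 averaged 379 ± 107 CPM in NK cells and 174 ± 100 in the interferon-response cluster, and it had 0 UMIs in CD8 T cells of all 4 libraries. For Klra8 and Klrb1c the ranges of NK cells and of the next class did not overlap, while for Ncr1 they overlapped, with 280 CPM in the lowest NK library and 296 in the highest of the cluster.

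The second set was carried by CD8 T cells as well. Klrc1 in CD8 T cells was 952 CPM in NT, 835 in RT1, 672 in RT2 and 802 in RT3, above NK cells in every library. CD8 T cells, 92, 61, 154 and 81 in number, held 44.4%, 32.9%, 45.2% and 43.4% of all Klrc1 UMIs of their libraries, and NK cells held 28.8%, 39.2%, 28.6% and 32.5%. NT was the highest library in CD8 T cells as well, although its log2 distance to the RT libraries there was smaller than in NK cells. Klrd1 averaged 634 ± 91.3 CPM in CD8 T cells and 550 ± 161 in NK cells, and Klrk1 averaged 180 ± 29.6 and 189 ± 38.6 CPM, with overlapping ranges for both genes.

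CD4 T or regulatory T cells, 140 cells in all, carried Klrc1 at 113 ± 55.7 CPM on 27 UMIs. Dendritic cells carried Klrk1 at 65.2 ± 18.3 CPM and Klrd1 at 99.2 ± 24.0 CPM, below NK cells and CD8 T cells in every library. CD4 T or regulatory T cells held only 3 UMIs of Klrk1 and 10 of Klrd1. In monocytes Klrk1 was 24.4, 12.4, 20.1 and 8.3 CPM on 24, 41, 112 and 24 UMIs in NT, RT1, RT2 and RT3, with NT highest, and in macrophages it averaged 5.29 ± 2.13 CPM. In fibroblasts and endothelial cells no receptor other than Klra4 had more than 2 UMIs.

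**Figure D2:**
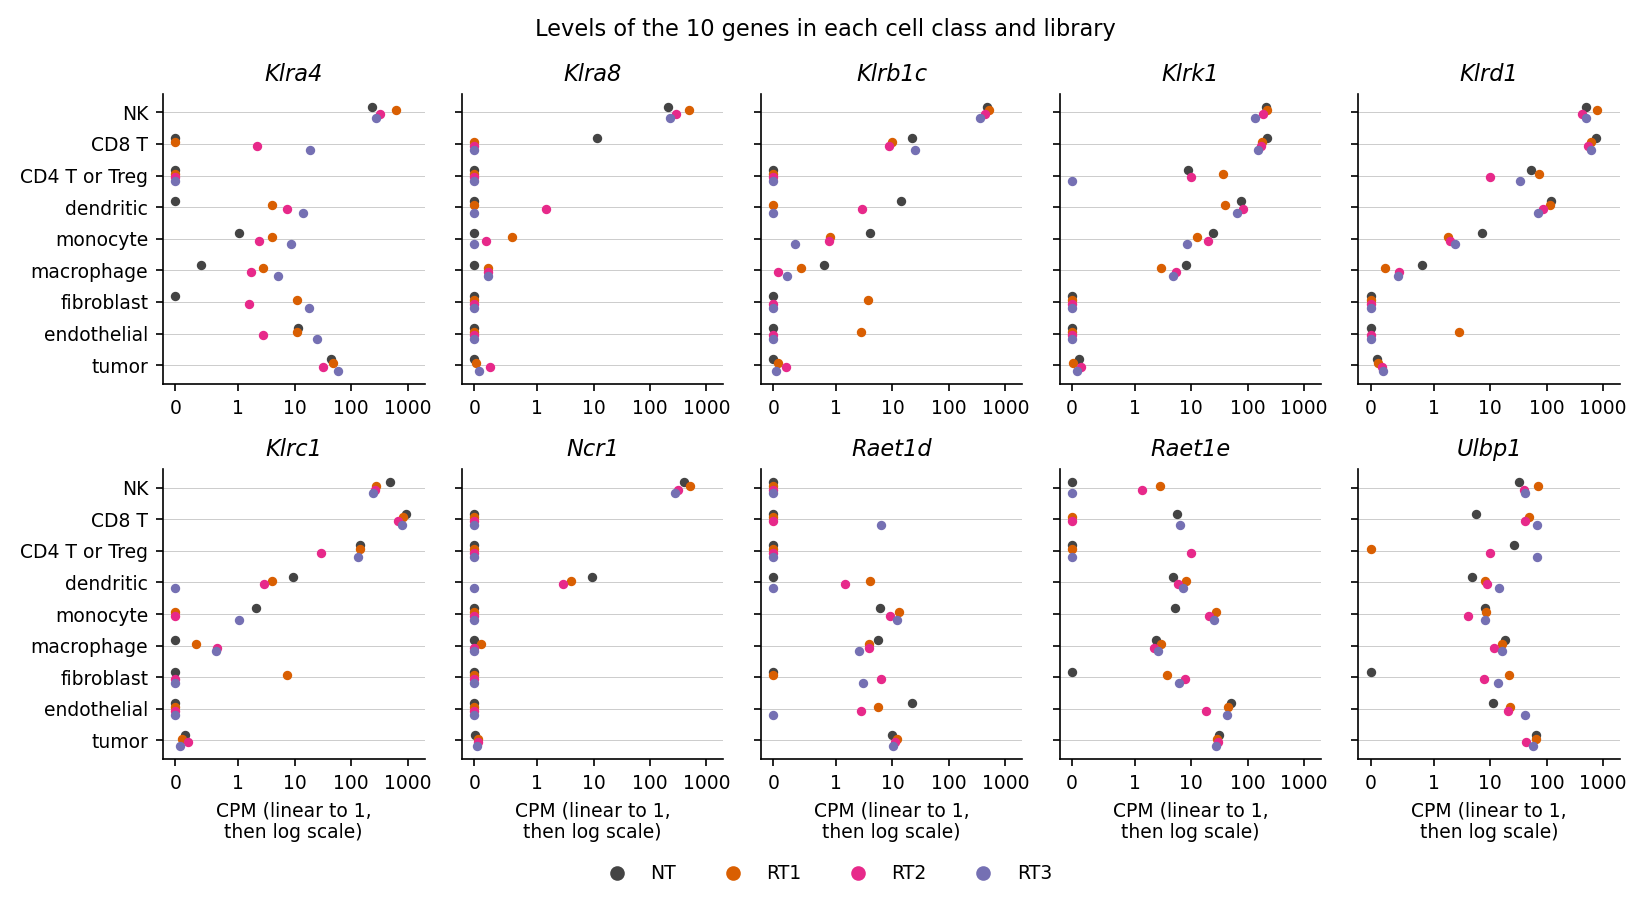
Levels of the 10 members by cell class, in CPM on an axis that is linear to 1 and logarithmic above, with 1 point per library. Receptors sit highest in NK cells or CD8 T cells, Klra4 also sits between 32.2 and 59.1 CPM in tumor cells, and Raet1e sits between 27.8 and 30.5 CPM in tumor cells.

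Klra4 was the exception among the receptors, because most of its UMIs came from LLC tumor cells. Tumor cells were 7606 in NT, 7975 in RT1, 7418 in RT2 and 9629 in RT3, in 7 clusters named from Rhox5, Krt8, Krt18, Hmga2 and Igf2bp2. They held 94.6%, 83.1%, 82.7% and 91.4% of all Klra4 UMIs. In CPM the level in NK cells was still above that in tumor cells in every library. The other receptor members were all at or below 0.245 CPM in tumor cells.

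In tumor cells Klra4 was 44.9 CPM in NT (2691 UMIs), 47.9 in RT1 (2465 UMIs), 32.2 in RT2 (2232 UMIs) and 59.1 in RT3 (3956 UMIs). RT2 was lowest and RT3 highest, with NT and RT1 close together between them. The log2 ratios to NT were 0.09, -0.48 and 0.40, so the irradiated tumors lay on both sides of NT, and their mean was 46.4 ± 13.5 CPM (SD, n = 3). Among 7838 genes tested in tumor cells, 1.07% were past the fold rule as higher and 0.115% as lower, and Klra4 was not among them.

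NK-cell genes were read in the same tumor cells. Klra8, whose summed UMIs in NK cells were close to those of Klra4, had 0, 1, 17 and 5 UMIs in tumor cells of NT, RT1, RT2 and RT3. A UMI of Ncr1, Klra8, Klrb1c, Gzma or Nkg7 was found in 0.62%, 0.78%, 1.68% and 0.71% of tumor cells with Klra4, and in 0.33%, 0.55%, 1.65% and 0.57% of those without. In NK cells the share was 82.0%, 94.8%, 92.9% and 91.9%, so NK genes were near 0 in Klra4-bearing tumor cells. The Klra4-bearing cells were the deeper ones, with medians of 10972, 9060, 15286 and 9635 UMIs against 5854, 4620.5, 6428 and 4735.

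Single tumor cells held up to 13, 15, 17 and 16 Klra4 UMIs in the 4 libraries. The 9 other Ly49 genes in the tables summed to 100, 124, 142 and 166 UMIs in tumor cells, mostly Klra2 and Klra6, and to 243, 485, 637 and 382 UMIs in NK cells. In NK cells these genes together outnumbered Klra4 by 2.11 to 4.76 times, and in tumor cells they were a small fraction of it. Which part of the transcript these reads came from was not analysed here.

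Within the tumor, Klra4 differed by cluster, and in 2 pairs of clusters the direction was the same in all 4 libraries. These pairs were chosen after their values were seen, so the comparison is a description. Clusters 0 and 5 were both dividing cells led by Ccna2, with nearly equal Top2a (the topoisomerase of dividing cells, ratio 0.995 to 1.04 between them). Klra4 was 82.5 CPM in NT, 100.4 in RT1, 76.7 in RT2 and 107 in RT3 in cluster 5, and 35.5, 33.7, 32.4 and 45.3 CPM in cluster 0. Every library of cluster 5 was above every library of cluster 0, by 2.32 to 2.98 times within a library.

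The same contrast appeared between clusters 6 and 3, where Top2a was lowest of the 7 clusters in every library. Klra4 was 38.8, 40.7, 25.1 and 46.8 CPM in cluster 6 and 13.7, 13.8, 6.62 and 21.4 CPM in cluster 3, a ratio of 2.19 to 3.8 within a library. Cells thinned to 3000 UMIs held a Klra4 UMI in 20.6%, 22.0%, 17.0% and 22.8% of cluster 5 and 9.32%, 7.70%, 8.37% and 11.5% of cluster 0. Clusters 5 and 6 shared other features that the members had no part in. Dpt (dermatopontin, a matrix protein) was 7.22 to 9.79 times higher in cluster 5 than 0 and 5.82 to 9.38 times higher in cluster 6 than 3, while Krt18 (keratin 18) was 0.12 to 0.207 and 0.0899 to 0.127 times the level. Krt18 was also 1 of the 5 markers that named tumor cells, so the clusters differed in a naming marker. Rhox5, another of these markers, differed little, with ratios of 0.932 to 0.996 and 0.857 to 0.982.

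**Figure D3:**
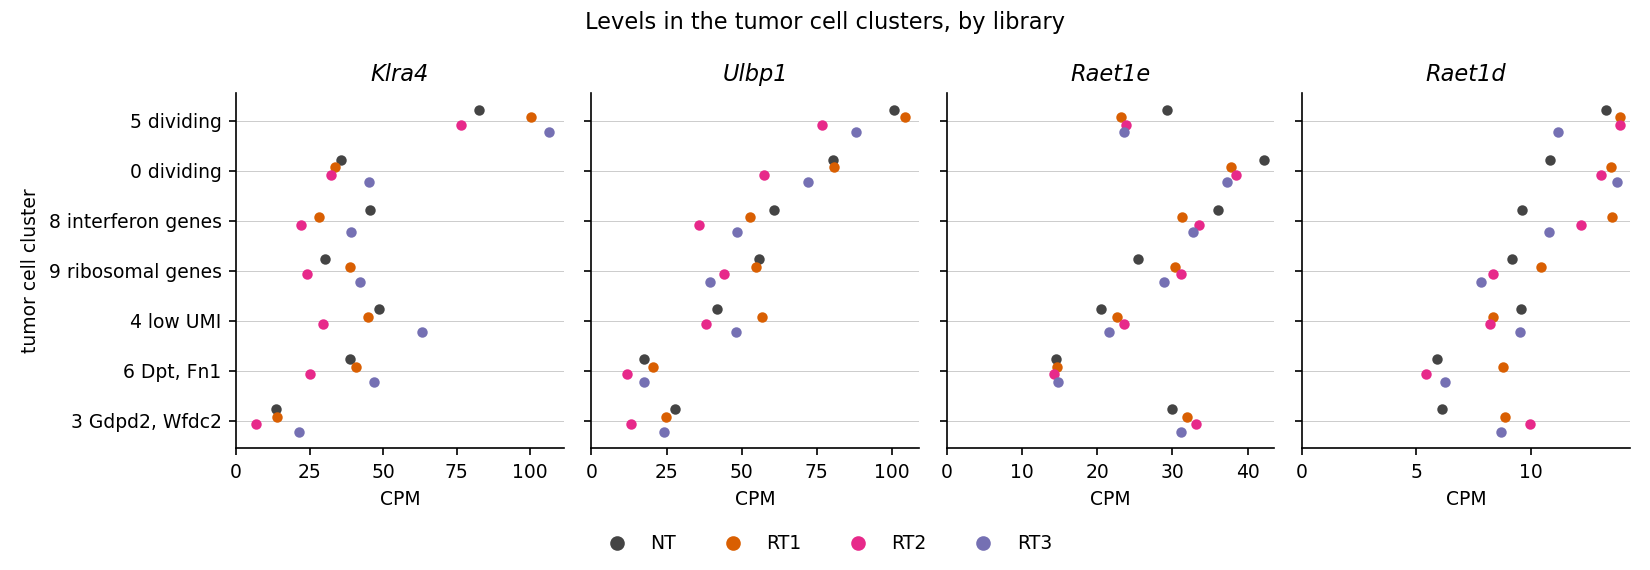
Levels of Klra4, Ulbp1, Raet1e and Raet1d in the 7 tumor clusters, in CPM, with 1 point per library. Klra4 is highest in cluster 5 at 76.7 to 107 CPM, Ulbp1 is highest in cluster 5 at 76.8 to 104 CPM, and Raet1e is lowest in cluster 6 at 14.3 to 14.8 CPM.

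Most UMIs of the 3 NKG2D ligands came from tumor cells. Ulbp1 encodes MULT1, a membrane ligand of high affinity, and was 63.9 CPM in NT (3830 UMIs), 65.9 in RT1 (3392 UMIs), 42.6 in RT2 (2948 UMIs) and 57.0 in RT3 (3811 UMIs). RT2 was lowest and NT and RT1 were nearly equal. The log2 ratios were 0.05, -0.59 and -0.17, a mean of -0.24 ± 0.32 (SD, n = 3).

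Raet1e encodes RAE-1 epsilon and varied least of the 3 ligands across libraries. In tumor cells it was 30.5 CPM in NT, 29.0 in RT1, 30.3 in RT2 and 27.8 in RT3, on 1830, 1490, 2098 and 1862 UMIs. All 3 RT libraries were below NT, by log2 ratios of -0.08, -0.01 and -0.13, and the Poisson interval of NT (29.1 to 32.0 CPM) overlapped those of RT1 and RT2. Raet1d, which encodes RAE-1 delta, was 9.84 CPM in NT, 11.9 in RT1, 11.1 in RT2 and 10.5 in RT3. All 3 RT libraries were above NT, with log2 ratios of 0.27, 0.17 and 0.09.

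None of the 3 ligands was past the fold rule in tumor cells. Of these, 1 of 3 was above NT in all RT libraries, where 25.8% of tested genes were, and 1 of 3 was below, where 36.2% were. Their median log2 ratio was -0.07, beside -0.06 for all tested genes. H60c, the remaining NKG2D ligand in all 4 tables, had 5, 6, 3 and 2 UMIs in tumor cells. The symbols Raet1a, Raet1b, Raet1c and H60a were in none of the 4 tables, so these genes could not be read.

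**Figure D4:**
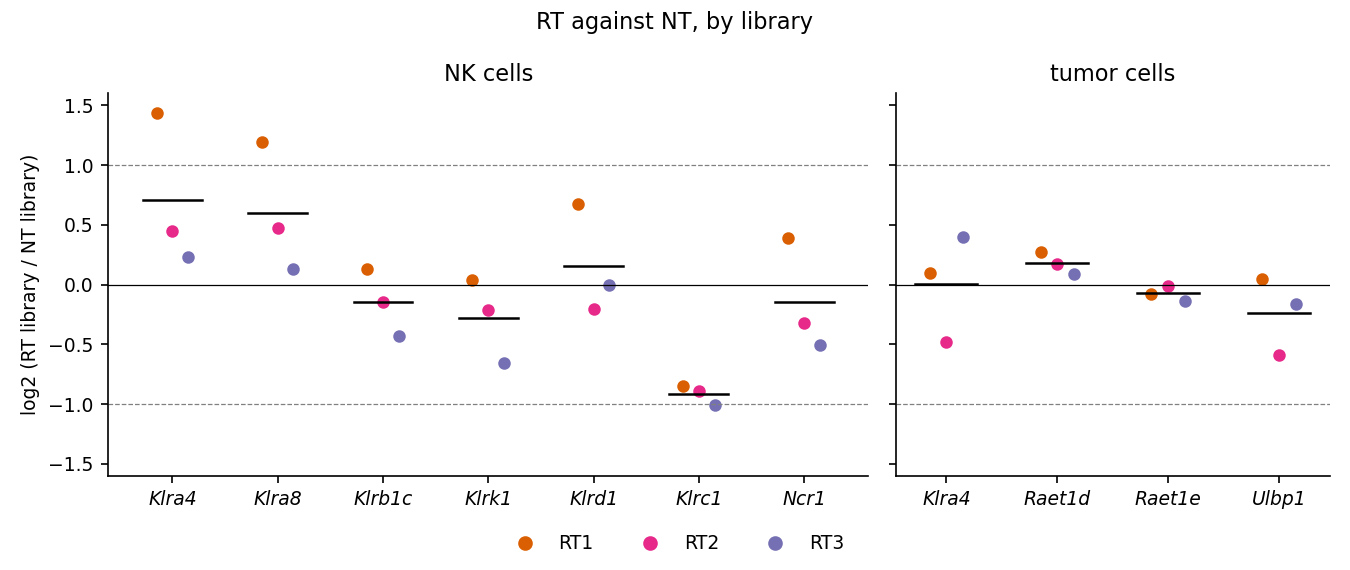
Log2 ratio of each RT library to NT for the receptor members in NK cells and for Klra4 and the ligands in tumor cells, with 1 point per RT library, a bar at their mean and dashed lines at 1 and -1. Klra4 and Klra8 in NK cells spread from 0.13 to 1.44, Klrc1 lies between -1.01 and -0.84, and the ligands lie between -0.59 and 0.27.

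Ulbp1 and Raet1e were arranged differently over the tumor clusters. Ulbp1 was 101, 104, 76.8 and 88.0 CPM in cluster 5 and 80.5, 80.7, 57.4 and 72.0 CPM in cluster 0, the dividing cells. In clusters 3 and 6 it was 27.9, 24.7, 13.1 and 24.3 CPM and 17.4, 20.4, 11.7 and 17.5 CPM. Every library had its Ulbp1 maximum in dividing cells. The share of tumor cells in the dividing clusters was 37.7%, 40.9%, 29.6% and 37.4%, and Top2a over all tumor cells was 501, 399, 251 and 352 CPM, with RT2 lowest on both as it was for Ulbp1. Its part in the level of Ulbp1 was not tested.

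Raet1e did not follow Klra4. It was 29.3, 23.2, 23.8 and 23.6 CPM in cluster 5 and 42.2, 37.7, 38.5 and 37.2 CPM in cluster 0, a ratio of 0.615 to 0.694. In cluster 6 it was 14.5, 14.7, 14.3 and 14.8 CPM and in cluster 3 it was 29.9, 32.0, 33.1 and 31.2 CPM, a ratio of 0.432 to 0.483. Raet1e was thus lower where Klra4 was higher in both pairs and in every library. Across the 28 sums of 7 tumor clusters in 4 libraries, which share libraries and depth, Pearson's r of Klra4 was 0.65 with Ulbp1 and -0.27 with Raet1e.

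The 2 clusters led by Lum and Dcn, 3738 cells in all, carried tumor markers too and were left unnamed. Raet1e there was 39.5, 40.6, 47.2 and 40.5 CPM in NT, RT1, RT2 and RT3, above the named tumor cells in every library. Klra4 was 8.35, 6.71, 4.13 and 12.4 CPM, below the named tumor cells in every library.

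Raet1e was also found in monocytes. It was 5.08 CPM in NT (5 UMIs, interval 1.65 to 11.9), 27.0 in RT1 (89 UMIs, 21.7 to 33.2), 20.3 in RT2 (113 UMIs, 16.7 to 24.4) and 24.9 in RT3 (72 UMIs, 19.5 to 31.4). NT was low and the 3 RT libraries were close together, and the interval of NT did not meet theirs. The log2 ratios were 2.28, 1.86 and 2.17, a mean of 2.10 ± 0.22 (SD, n = 3). The NT value rested on 559 monocytes, against 1860, 2052 and 1867 in the RT libraries. Raet1e reached a mean of 10 CPM in monocytes only through the RT libraries. The share of all genes past the fold rule was not computed for monocytes, so nothing was read from the size of these ratios.

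Rhox5, the tumor marker, was read in the same monocytes. It was 111 CPM in NT, 96.5 in RT1, 99.1 in RT2 and 143 in RT3, which was 10.4%, 7.4%, 8.3% and 12.1% of its tumor level. Raet1e in monocytes was 16.6%, 93.2%, 66.9% and 89.4% of its tumor level. Set against 100 Rhox5 UMIs, monocytes held 4.59, 28.0, 20.4 and 17.4 Raet1e UMIs, tumor cells 2.88, 2.23, 2.53 and 2.36, and macrophages 6.45, 3.85, 3.40 and 3.02. Endothelial cells held 112.5, 18.8, 15.3 and 15.2 per 100 Rhox5 UMIs, on only 9, 16, 13 and 5 Raet1e UMIs. Per Rhox5 UMI, monocytes and endothelial cells of the RT libraries thus held several times more Raet1e than the tumor cells of the same library. Macrophages there were close to the tumor cells. The source of the Raet1e UMIs in these classes was not tested.

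Raet1d in monocytes was 6.09, 13.0, 8.96 and 12.1 CPM on 6, 43, 50 and 35 UMIs, lowest in NT like Raet1e, with intervals that overlapped between NT and each RT library. Reads of Raet1d and Raet1e are hard to separate, as given above. Ulbp1 in monocytes was 8.12, 8.49, 4.12 and 7.95 CPM, with RT2 lowest.

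Among other cells, endothelial cells carried Raet1e at 50.9, 44.3, 18.2 and 42.3 CPM on only 9, 16, 13 and 5 UMIs, while Rhox5 there was 4.3%, 18.1%, 9.9% and 23.7% of its tumor level. Macrophages carried Ulbp1 at 18.2, 16.1, 11.8 and 16.3 CPM. NK cells themselves carried Ulbp1 at 31.9, 69.1, 39.4 and 41.0 CPM on 7, 25, 29 and 16 UMIs, and they held no Raet1d UMI and only 2 of Raet1e in all. CD8 T cells carried Ulbp1 at 5.66, 49.7, 40.8 and 68.9 CPM, where NT was a single UMI. Rhox5 in NK cells was 4.3%, 4.3%, 2.5% and 3.7% of its tumor level. In macrophages it was 3.5%, 5.8%, 5.3% and 7.4%, and in CD8 T cells 1.6%, 5.4%, 3.6% and 6.4%.

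**Figure D5:**
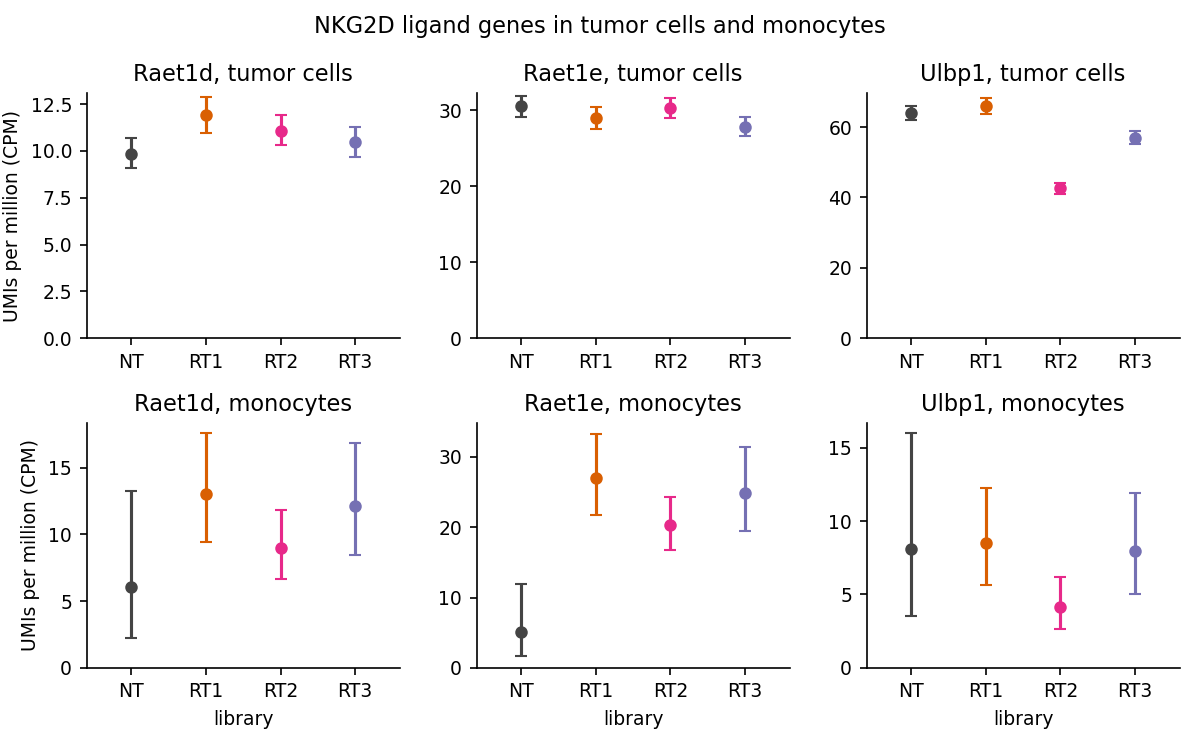
Levels of Raet1d, Raet1e and Ulbp1 in tumor cells and monocytes of each library, in CPM, with exact Poisson 95% intervals as bars. Raet1e in monocytes is 5.08 CPM in NT and 20.3 to 27.0 CPM in the RT libraries, while in tumor cells it stays between 27.8 and 30.5 CPM in all 4.

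Genes of the pathway were read from fixed lists in the same way. Some of these lists included members, so their counts and medians are not separate from the values above. Of 8 Ly49 genes tested in NK cells, Klra6 alone was past the fold rule and lower, beside 2.48% of all tested genes. It was at 41.0, 8.29, 10.9 and 7.70 CPM on only 9, 3, 8 and 3 UMIs, and it reached the mean of 10 CPM only through NT, so nothing was read from its call. Klra4 was the most abundant gene of that list, and the list's median log2 ratio was -0.01. None of 11 tested genes in a list of lectin-like receptors outside the Ly49 family, which held Klrd1, was past the rule (median -0.15). In another list of NK receptors, which held Ncr1, none of 8 tested genes was past it (median -0.20). The median of all tested genes was -0.11.

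Adaptors were tested at 10 genes in NK cells, of which 0 were past the rule, 2 were above NT in all RT libraries and 6 below, beside 27.4% and 36.0% of all tested genes, and the median was -0.30, beside -0.11. Fcer1g, the shared signaling chain of NKp46 and of Fc receptors, was the most abundant of that list. Effector genes were tested at 11, of which 0 were past the rule, 4 were above and 3 below, with the same shares beside them, and the median was -0.22. Gzmb (granzyme B) was the most abundant, at 8256 CPM in NT and 8709 ± 490 in RT (SD, n = 3). Of 7 ligands of other NK receptors in NK cells, 0 were past the rule, with a median of -0.16 and B2m (the light chain of class I molecules) as the most abundant.

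In tumor cells, 5 ligands of other NK receptors were tested, and 3 were above NT in all RT libraries without passing the rule, beside 25.8% of all tested genes. H2-D1, a class I heavy chain, was the most abundant at 4415, 4309, 5171 and 4487 CPM. H2-T23 encodes Qa-1, the class I molecule that CD94/NKG2A binds, and was 17.8 CPM in NT, 39.6 in RT1, 73.2 in RT2 and 25.3 in RT3, with RT2 far above the rest. H2-T23 was singled out after its values were seen. Of 2 adaptors tested in tumor cells, Plcg2 was the most abundant, at a mean of 34.2 CPM. Fcer1g was past the rule and higher, beside 1.07% of all tested genes, at 4.02, 12.8, 16.2 and 8.88 CPM. It reached the mean of 10 CPM only through the RT libraries, so nothing was read from its call. Lyz2, a gene of myeloid cells, was 11.03, 68.5, 65.5 and 31.7 CPM in the same tumor cells, and its part in the Fcer1g values was not tested.

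Genes whose levels were most like those of the members were found by Pearson's r over 37 sums of a class in a library, each with 50 cells or more. These points share libraries and depth and are dominated by the difference between classes, so r is a description. Sub1 was most like the summed receptors (r = 0.96), followed by Sept6, Cst7, Ptprcap, Il12rb2, Txk, Fcho1 and Il2rb. For the summed ligands these were Acp6 (r = 0.86), Thap4, Nif3l1, Snapc2, Gclm, Gatad1, Insig2 and 0610009B22Rik.

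Within tumor cells likeness was computed over the 28 cluster sums, a choice made after the cluster values were seen. Klra4 was most like Zfp706 (r = 0.91), Cnbp and Lclat1, and its r with Top2a was 0.53. Ulbp1 was most like Hells (r = 0.99), Pole and Chek1, genes of DNA replication and its checkpoint, and its r with Top2a was 0.96.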

How the data were processed

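Microwell 3′ libraries (SeekOne MM kit) were made from NT (3 tumors pooled) and from RT1, RT2 and RT3 (1 tumor each). The authors deposited UMI counts per gene and cell, not normalized; RT2 was deposited as a table of symbols with fewer genes, whose highest mitochondrial share was 11.95%. The study's methods name SeekOne Tools, and the submitters' processing notes name STAR 2.5.1b, Subread 1.6.4 with featureCounts, Cell Ranger and the GRCm39 (mm39) build. The genes outside the 18596 shared ones held at most 0.0072% of UMIs.

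Cells with at least 200 genes and at most 20% mitochondrial counts were kept. Counts were scaled to 10000 per cell. The 2000 variable genes, chosen with the 70 listed genes and also the mitochondrial genes left out, gave 30 principal components. These were aligned across libraries by a rewritten Harmony (theta 2, sigma 0.1). Cells were clustered with leidenalg 0.10.2 (20 neighbors, resolution 0.8) into 18 clusters, and lymphocytes were clustered again into 10. Cluster names needed at least 3 markers above the mean and no lead of another class in the top 10 genes. Lymphocyte clusters with no marker of their own in the top 10 were also left unnamed, a rule to which tumor clusters were not held. So were clusters nearest to a non-tumor class with tumor markers above the mean. These naming rules were set after clusters were seen, so class shares may differ from the study's. Clusters that failed them were left out of class sums, among them 62, 54, 100 and 45 lymphocytes led by interferon-response genes and 474, 1214, 1162 and 888 cells led by Lum and Dcn in NT, RT1, RT2 and RT3. The doublet caller in scanpy 1.11.5 marked 8 cells (0.08%) in NT and so had not worked there, and no doublets were removed.

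UMIs were summed per library and class and divided by the class total (CPM). Log2 ratios of an RT library to NT used a prior of 0.5 UMI. Intervals were exact Poisson for UMIs and exact binomial for shares, at 95%, and cover counting error only. The script that applies the fold rule was checked on simulated counts. No statistical test was run on the data, since NT was 1 library and the members were chosen on the same contrast. The members, gene lists and comparisons were chosen with earlier results of these data known. Named genes were all 10 members, any listed gene past the fold rule (up to 4 per list), the most abundant gene of each list with tested genes in the class, and the 8 genes most like each summed set. H2-T23, H60c and the genes named for tumor clusters fall outside this rule and were named after their values were seen. Marker genes of cell types, such as Gzma, Cd3e, Cd8a, Lyz2 and Rhox5, and Klra2 in tumor cells also fall outside it. Alternatives changed cell filters, resolution, doublets, priors, weights, members of a class and replicates. Python 3.11.15, numpy 2.4.6, scipy 1.17.1, pandas 2.3.3 and biopython 1.88 were used.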

Additional observations from a re-analysis of the deposited data

Results flagged for a closer look

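Raet1e lay on opposite sides of NT in 2 classes. It was higher in all 3 RT libraries in monocytes (mean log2 ratio 2.10) and lower in all 3 in tumor cells (mean -0.07), a distance of 2.18 on the log2 scale. The tumor value was close to the median of all genes tested there (-0.06). NT monocytes held 5 UMIs of Raet1e, and the gene reached a mean of 10 CPM in monocytes only through the RT libraries. The share of all genes past the fold rule was not computed for monocytes. The difference was not tested, because NT was 1 library.

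Ulbp1 was higher in all 3 RT libraries in NK cells (mean log2 ratio 0.53, from 7 UMIs in NT) and lower in all 3 in macrophages (mean -0.32), a distance of 0.85. Without the NK cells that held a T-cell gene, its log2 ratios in NK cells were 0.80, -0.05 and 0.02, no longer all above NT. This difference was not tested either. Outlying samples were not sought by a gap criterion, since the groups held 1 and 3 libraries.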

How the results depend on the processing

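No paired analysis was possible because NT is 1 library and shares no replicate structure with the RT libraries. The count of receptor members past the fold rule in NK cells, 0 as reported, was 1 (Klrc1) when every cell had equal weight and 1 when the rule was set at a log2 ratio of 0.58. The median log2 ratio of the 7 receptors in NK cells, -0.14, ranged from -0.29 to 0.04 when 1 RT library was left out. That of the 3 ligands in tumor cells ranged from -0.07 to -0.04, and Klra4 in tumor cells ranged from -0.19 to 0.25 around a value of 0.00. The receptor median was lower still, at -0.35, without the NK cells that held a T-cell gene. It was -0.34 without the alignment across libraries. Over all alternatives Klrc1 in NK cells stayed between -1.19 and -0.84, Klra4 between 0.29 and 0.95 and Klra8 between 0.30 and 0.83. Without RT1 the last 2 were 0.34 and 0.30. The mean log2 ratio of Ulbp1 in tumor cells ranged from -0.38 to -0.06 over all alternatives. The alternatives with the largest NK cluster alone, with the Lum and Dcn cells, and with equal weight for each tumor cluster were chosen after seeing the data. NT held 46 to 109 UMIs per receptor in NK cells, which limits their precision to the intervals given, and the spread between mock-treated tumors is unknown.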
